A study of Mus musculus with 12 samples.

Results

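TrspA37G liver was set against wild-type liver, both from mice fed 2.0 ppm selenium, in all 23 selenoprotein genes that the deposited tables list. The comparison rests on 4 of the 12 libraries of the series: a library of ribosome footprints and a library of total mRNA for each genotype. The transgenic animals were FVB/N mice carrying 20 copies of the transgene TrspA37G, a mutant gene for the selenocysteine (Sec) tRNA. The wild-type animals were FVB/N mice without it, and both genotypes had been on the diet for 6 weeks. The labels give an age of 3 weeks, which is shorter than the time on the diet and so is not read as the age of the mice when livers were taken. The promoter of the transgene, the state of the resident Sec tRNA gene and the number of mice per library are points not given in the sources used here. Other libraries of the series, which is about dietary selenium and Sec insertion, hold both genotypes at 0 and 0.1 ppm. Each group is 1 library, so no difference here has a replicate check and no p-value is given.

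Selenoproteins carry Sec, which is inserted at an in-frame UGA codon, a codon that otherwise ends translation. Insertion needs the Sec tRNA, a dedicated elongation factor and a stem-loop in the mRNA called the SECIS element, and a ribosome that fails to insert Sec stops at the UGA. The base beside the anticodon of this tRNA normally carries an isopentenyl group, and the A37G form cannot be modified there. Liver makes many selenoproteins, among them the selenium carrier that it secretes into plasma.

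The letters around the UGA codon are shown for 8 genes on which the results turn. They run from 15 nt before the codon to 12 nt after it, or to the stop codon in Txnrd2, in the coding direction, with the UGA (TGA in DNA) in capitals, and come from GENCODE M21 on build GRCm38. The files themselves give no coordinates.
Gpx1: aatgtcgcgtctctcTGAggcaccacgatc
Gpx4: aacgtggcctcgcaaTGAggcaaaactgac
Txnrd2: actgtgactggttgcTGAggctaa
Sepx1: ggacaatcaagattcTGAatatttagcagc
Sepw1: gtgtattgtggagctTGAggctataagccc
Sephs2: tccggcatgaagggcTGAggctgcaaggtc
Sepp1: cttcttcaagccagcTGAtacttgtgtctt
Selt: cagatttgtgtatccTGAgggtaccggcgg
These codons lie in coding exons at chr9:108339451-108339453 (plus strand), chr10:80054737-80054739 (plus), chr16:18477772-18477774 (plus), chr17:24740158-24740160 (plus), chr7:15920464-15920466 (minus), chr7:127273731-127273733 (minus), chr15:3274848-3274850 (plus) and chr3:58585238-58585240 (plus). For Sepp1 the first of its Sec codons is shown. In Gpx1, Gpx4, Txnrd2, Sepw1, Sephs2 and Selt a G follows the codon, in Sepx1 an A and in Sepp1 a T. Among the 10 genes with fewer footprints in TrspA37G (below) a G followed in 7, and among the other 10 genes compared in 4.

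Mapped reads per library were inferred from the deposited values and annotated coding lengths. They came to 22139115 in TrspA37G and 17763406 in wild type for footprints. For mRNA they came to 13073779 in TrspA37G and 12399318 in wild type. Reads were recovered from the deposited values, RPKM for mRNA and RPFKM (the same unit for footprints), which the authors scaled to region length and to the mapped reads of a library. The column of TrspA37G footprints at 2.0 ppm is called mRNA in the assay line of 3 tables and RPFKM in their unit line. It was read as footprints, since another column holds the mRNA of that group, and each TrspA37G footprint value below rests on this reading. The tables hold selenoprotein genes alone, so the tissue can be checked only through Sepp1 and Dio1, both made by liver. Over whole mRNAs Sepp1 had the highest level of the 23 genes in both genotypes, at 2163 RPKM in TrspA37G and 3045 in wild type. Over the coding sequence Gpx1 was above it in both, at 2166 RPKM in TrspA37G and 4436 in wild type, while Sepp1 had 1816 in TrspA37G and 2695 in wild type. The transgene itself is not in the tables. In whole tissue, fewer cells of a type and less RNA per cell cannot be told apart.

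A gene was compared when the 2 libraries held at least 10 reads of it together and at least 1 each. It was counted as lower or higher when the ratio was at least 1.5-fold and its 95% interval excluded 1. Intervals, given in parentheses, cover counting error only and not variation between mice. 20 of the 23 genes met the floor, while Dio2, Dio3 and Gpx2 did not. Dio2 had 0 mRNA reads in TrspA37G and 2 in wild type, Dio3 had 3 in TrspA37G and 2 in wild type, and Gpx2 had 0 in TrspA37G and 4 in wild type. Each of them had at most 1 footprint in a library.

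Per mapped read, many selenoprotein mRNAs and footprints were scarcer in TrspA37G liver than in wild-type liver. mRNA was lower in 6 of 20 genes (30%) and higher in 0 of 20 (0%), with a median log2 ratio of -0.43. Footprints over the coding sequence were lower in 10 of 20 (50%) and higher in 0 (0%), with a median of -0.67. Translational efficiency, the footprint level over the mRNA level of the same genotype, was lower in 6 of 20 (30%) and higher in 0 (0%), with a median of -0.47. Added over the coding sequences of the 23 genes, footprints made up 0.143% of mapped reads in TrspA37G and 0.458% in wild type, 3.20-fold lower (3.16 to 3.24). Gpx1 alone carried much of that sum. Without it the shares were 0.116% in TrspA37G and 0.213% in wild type, 1.84-fold lower (1.81 to 1.87), and for mRNA the sum of all 23 was 1.52-fold lower (1.5 to 1.53).

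4 genes, Gpx1, Sepw1, Sepx1 and Txnrd2, were lower in all 3 measures. Gpx3 and Txnrd3 were lower in mRNA and footprints, Sephs2 in footprints and efficiency, and Selh, Sepp1 and Txnrd1 in footprints alone. Sep15 was lower in efficiency alone. The other 9 genes compared, Dio1, Gpx4, Seli, Selk, Selm, Selo, Selt, Sels and Sepn1, were counted as neither lower nor higher in any of these measures. For Selm and Sepn1 this reflects few reads (below). Scaling the libraries to the median ratio of the genes compared, in place of mapped reads, left 3 mRNAs lower (Gpx1, Txnrd2 and Txnrd3) and made 6 higher (Dio1, Gpx4, Seli, Selk, Selt and Sep15). For footprints it left 7 lower, without Gpx3, Sepp1 and Txnrd1, and made Gpx4, Seli and Selk higher. For efficiency it left Gpx1, Sepw1 and Sepx1 lower and made Selk higher.

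**Figure D1:**
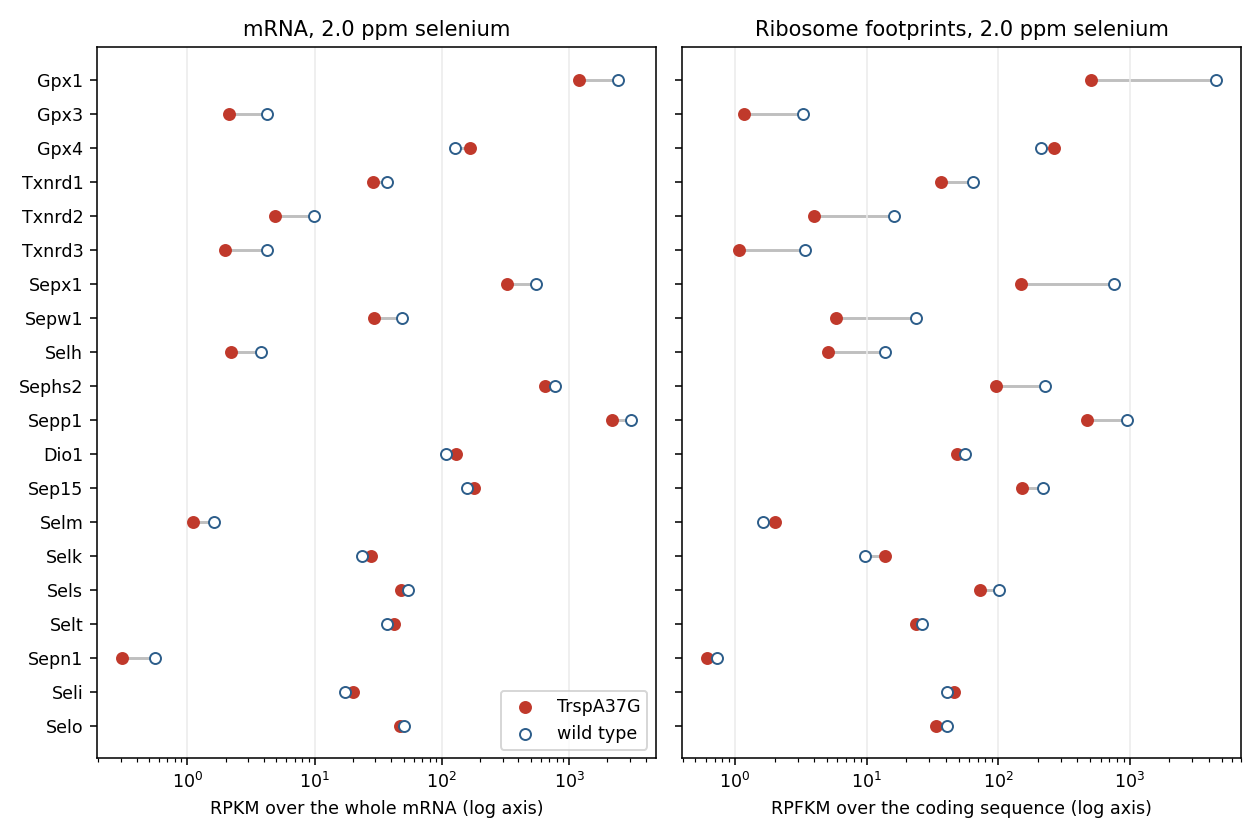
mRNA levels (RPKM, left) and footprint levels (RPFKM, right) on log axes for the 20 genes compared, TrspA37G as filled and wild type as open points, 1 library a point. The widest gap is that of Gpx1 footprints, at 506 RPFKM in TrspA37G and 4501 in wild type, while the points of Gpx4, Dio1 and Selo lie close together.

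Of the glutathione peroxidases, Gpx1 showed the widest difference of any gene compared, in footprints and in efficiency. Gpx1, the cytosolic enzyme that reduces hydrogen peroxide, had 1185 RPKM of mRNA in TrspA37G and 2437 in wild type, 2.06-fold lower (2.02 to 2.10). Its footprints were at 506 RPFKM in TrspA37G and 4501 in wild type, 8.89-fold lower (8.66 to 9.14). Its efficiency was 0.427 in TrspA37G and 1.85 in wild type, 4.32-fold lower (4.19 to 4.47). On the log2 scale, with libraries scaled to mapped reads, the mRNA difference made up 33.0% of the footprint difference and the efficiency the other 67.0%. Gpx3, the glutathione peroxidase of plasma, was measured far more thinly, with 16 footprints in TrspA37G and 36 in wild type. Its mRNA stood at 2.12 RPKM in TrspA37G and 4.20 in wild type, 1.98-fold lower (1.35 to 2.96), and its footprints at 1.16 RPFKM in TrspA37G and 3.26 in wild type, 2.80-fold lower (1.52 to 5.41). Gpx4, which reduces lipid hydroperoxides in membranes, went the other way within the rule. It had 167 RPKM in TrspA37G and 126 in wild type, 1.33-fold higher (1.24 to 1.42), and 265 RPFKM in TrspA37G and 212 in wild type, 1.25-fold higher (1.18 to 1.32). Its efficiency of 1.58 in TrspA37G and 1.69 in wild type had a log2 ratio of -0.09 (-0.22 to 0.04), an interval that excludes a difference of 1.5-fold in these 2 pairs of libraries. Both Gpx1 and Gpx4 have a G after the UGA in the letters above.

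The thioredoxin reductases, which pass electrons from NADPH to thioredoxin, had fewer footprints in TrspA37G in 3 of 3 genes, beside 10 of 20 (50%) over all genes compared. Txnrd2, the mitochondrial enzyme, had 3.97 RPFKM in TrspA37G and 16.3 in wild type, 4.10-fold lower (3.37 to 5.01), from 134 footprints in TrspA37G and 441 in wild type. Its mRNA was at 4.89 RPKM in TrspA37G and 9.99 in wild type, 2.04-fold lower (1.63 to 2.56), and its efficiency at 0.811 in TrspA37G and 1.63 in wild type, 2.01-fold lower (1.49 to 2.72). With libraries scaled to mapped reads, the mRNA made up 50.5% of the log2 footprint difference and the efficiency 49.5%, nearly equal parts. Txnrd3, a form best known from testis, was low throughout, at 1.07 RPFKM in TrspA37G and 3.38 in wild type, 3.16-fold lower (2.22 to 4.56), from 45 footprints in TrspA37G and 114 in wild type. Its mRNA was at 2.00 RPKM in TrspA37G and 4.24 in wild type, 2.12-fold lower (1.60 to 2.84). Txnrd1, the cytosolic enzyme and by far the most abundant of the family here, had 36.7 RPFKM in TrspA37G and 64.2 in wild type, 1.75-fold lower (1.62 to 1.89). Its mRNA, at 29.0 RPKM in TrspA37G and 37.4 in wild type, had a log2 ratio of -0.37 (-0.48 to -0.26), within the rule. In Txnrd1 and Txnrd2 the UGA is the codon before the last, so their footprints lie 5' of it and show ribosomes before they reach the Sec codon.

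The small redox proteins Sepx1, Sepw1 and Selh had fewer footprints in TrspA37G in 3 of 3 genes, beside 10 of 20 (50%) over all genes compared, with a median log2 ratio of -2.02 beside -0.67. Sepx1 (now called Msrb1), a methionine sulfoxide reductase, had 149 RPFKM in TrspA37G and 762 in wild type, 5.11-fold lower (4.76 to 5.48). Its mRNA was at 327 RPKM in TrspA37G and 549 in wild type, 1.68-fold lower (1.61 to 1.75), and its efficiency at 0.456 in TrspA37G and 1.39 in wild type, 3.05-fold lower (2.81 to 3.30). After that of Gpx1, this was the widest difference in efficiency. Sepw1, a small thioredoxin-like protein, had 29.3 RPKM of mRNA in TrspA37G and 48.7 in wild type, 1.66-fold lower (1.42 to 1.94). It had 27 footprints in TrspA37G and 88 in wild type, that is 5.89 RPFKM in TrspA37G and 23.9 in wild type, 4.06-fold lower (2.61 to 6.51). Its efficiency was 0.201 in TrspA37G and 0.491 in wild type, 2.45-fold lower (1.53 to 4.02). Its UGA is codon 13, within the first 15 codons that the window leaves out, so these footprints all lie 3' of the UGA. Selh, a nuclear redox protein, had 33 footprints in TrspA37G and 71 in wild type, that is 5.12 RPFKM in TrspA37G and 13.7 in wild type, 2.68-fold lower (1.75 to 4.18). Its mRNA, from 20 reads in TrspA37G and 33 in wild type, had a log2 ratio of -0.80 (-1.68 to 0.05), so that a difference in mRNA was not detectable at this depth.

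Of the genes that supply and carry selenium, both had fewer footprints with mRNA within the rule. Sephs2, which makes the selenium donor used for Sec synthesis and is itself a selenoprotein, had 649.6 RPKM of mRNA in TrspA37G and 768 in wild type, a log2 ratio of -0.24. Its footprints were at 95.9 RPFKM in TrspA37G and 229 in wild type, 2.39-fold lower (2.28 to 2.5), and its efficiency at 0.148 in TrspA37G and 0.298 in wild type, 2.02-fold lower (1.92 to 2.12). Of the 10 genes with fewer footprints it had the largest part in efficiency, 80.8% of the log2 footprint difference. Such parts depend on the scaling to mapped reads. Under median scaling the log2 ratio of Sephs2 was 0.19 in mRNA and -0.59 in footprints. Sepp1, the plasma selenium carrier, which holds several Sec residues, had 472 RPFKM in TrspA37G and 951 in wild type, 2.02-fold lower (1.97 to 2.06). Its mRNA, at 2163 RPKM in TrspA37G and 3045 in wild type, had a log2 ratio of -0.49 (-0.51 to -0.48), and its efficiency one of -0.52 (-0.55 to -0.48). Both lay below 0 and within 1.5-fold.

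The selenoproteins of the endoplasmic reticulum were not counted in mRNA or in footprints, 0 of 6 lower and 0 of 6 higher in each. Over all 20 genes 30% were lower in mRNA and 50% in footprints, and 0% were higher in either. Sep15 (now Selenof), which binds a glycoprotein-folding enzyme, was the exception in efficiency. It had 179 RPKM of mRNA in TrspA37G and 158 in wild type, and 152 RPFKM in TrspA37G and 218 in wild type. Its efficiency was thus 0.846 in TrspA37G and 1.38 in wild type, 1.63-fold lower (1.5 to 1.78). Sels, a membrane protein of the pathway that removes misfolded proteins, had 72.7 RPFKM in TrspA37G and 102 in wild type, a log2 ratio of -0.49 (-0.63 to -0.36). Selk, also a membrane protein, lay on the other side, at 13.9 RPFKM in TrspA37G and 9.76 in wild type, with a log2 ratio of 0.51 (-0.08 to 1.11) from 69 footprints in TrspA37G and 39 in wild type. Selm and Sepn1 had 11 to 22 footprints in a library, and their intervals included 1 in each measure. Some of their ratios lay past 1.5-fold, such as Sepn1 mRNA at log2 -0.85 (-1.92 to 0.16) and Selm efficiency at 0.86 (-0.82 to 2.55). A difference in these genes was thus not detectable at this depth. Selt, a thioredoxin-like protein, had 23.7 RPFKM in TrspA37G and 26.2 in wild type, a log2 ratio of -0.15 (-0.40 to 0.11), but its footprints lay in other places (below).

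The remaining genes compared were within the rule. Dio1, the deiodinase that turns the thyroid hormone T4 into T3 in liver, had 129.6 RPKM of mRNA in TrspA37G and 108 in wild type, and 48.9 RPFKM in TrspA37G and 55.6 in wild type. Its efficiency had a log2 ratio of -0.44 (-0.61 to -0.27). Seli, which takes part in making the phospholipid phosphatidylethanolamine, had log2 ratios of 0.23 in mRNA and 0.18 in footprints. Selo, a mitochondrial protein, had log2 ratios of -0.11 in mRNA and -0.28 in footprints.

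**Figure D2:**
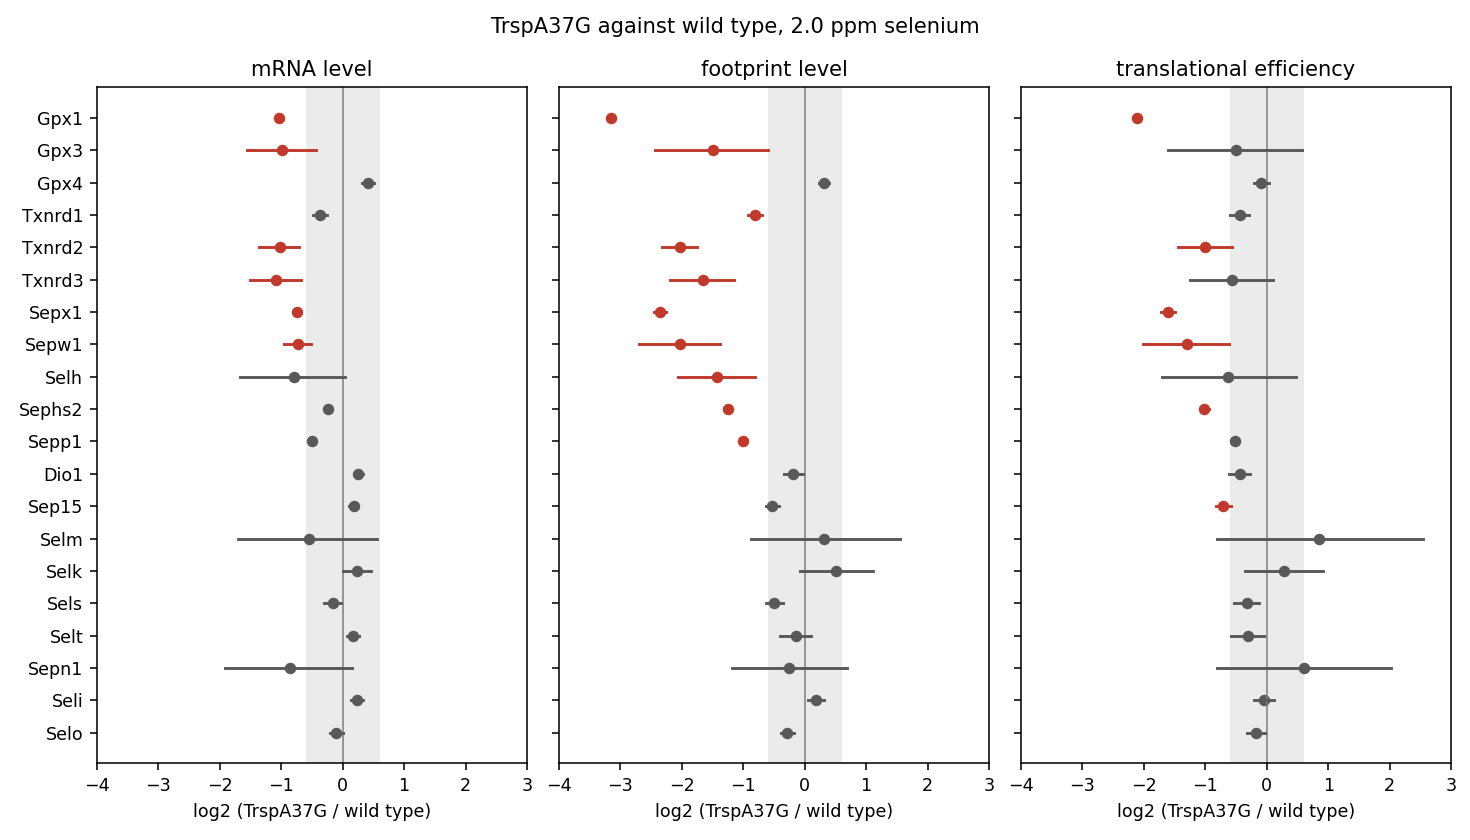
log2 ratios of TrspA37G to wild type at 2.0 ppm for mRNA, footprints and translational efficiency of 20 genes. Bars are 95% intervals for counting error, the grey band is 1.5-fold on either side of 0, and genes counted as lower (6, 10 and 6) are in red.

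Selenoproteins are often divided into stress-related ones, which give way first when selenium is short, and housekeeping ones. Here 7 genes were listed as stress-related (Gpx1, Gpx3, Sepx1, Sepw1, Selh, Selk and Selt) and 6 as housekeeping (Gpx4, Txnrd1, Txnrd2, Sepp1, Sephs2 and Sep15). The stress-related genes were lower in mRNA in 4 of 7, in footprints in 5 of 7 and in efficiency in 3 of 7, with median log2 ratios of -0.75, -1.49 and -0.62. The housekeeping genes were lower in 1 of 6, 4 of 6 and 3 of 6, with medians of -0.30, -0.91 and -0.61, of which that of mRNA turned to 0.13 under median scaling. Over all 20 genes 30% were lower in mRNA, 50% in footprints and 30% in efficiency, and the medians were -0.43, -0.67 and -0.47. Both lists held genes on either side, Selk of the stress-related and Gpx4 of the housekeeping ones lying above 0 in mRNA and footprints. A difference between the lists was not tested. The 7 genes whose UGA lies among the last codons (Txnrd1, Txnrd2, Txnrd3, Selk, Sels, Selo and Seli) had 3 lower in footprints, the 3 reductases, beside 50% of all 20 genes, and a median of -0.49 that turned to 0.17 under median scaling.

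Footprints 5' and 3' of the UGA were deposited as separate windows, which asks how many of the ribosomes that approach the UGA are found beyond it. 5' of the UGA, 7 of 19 genes were lower in TrspA37G (36.8%): Gpx1, Sep15, Sephs2, Sepx1 and the 3 thioredoxin reductases. Selt alone was higher there, 1 of 19 (5.26%). 3' of the UGA, 8 of 13 genes were lower (61.5%) and 0 of 13 higher (0%), with a median log2 ratio of -1.25 beside -0.50 in the 5' window. The lower ones were Gpx1, Gpx3, Selh, Selt, Sephs2, Sepp1, Sepw1 and Sepx1. The 13 genes compared 3' of the UGA are not the 19 compared 5' of it, so the medians are not of matched genes. The thioredoxin reductases, Selk, Sels and Selo have next to no codons after the UGA. Sepn1 fell below the read floor 3' of it, with 1 footprint in TrspA37G and 2 in wild type. Sepw1 has a 3' window and no 5' window. Median scaling left 5 of the 7 lower in the 5' window, without Sep15 and Txnrd1, and made Gpx4, Seli and Selk higher there beside Selt. In the 3' window it left Gpx1, Sepw1 and Sepx1 lower and made Dio1, Gpx4, Seli and Sep15 higher.

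The readthrough ratio, footprint density 3' of the UGA over that 5' of it in a library, does not depend on how libraries are scaled. It was lower in TrspA37G in 2 of 12 genes (16.7%), Sepp1 and Selt, and higher in 0 (0%). Its median log2 ratio over the 12 genes was -0.22, with 8 genes below 0 and 4 above. In Sepp1 the 5' window held 1526 RPFKM in TrspA37G and 1743 in wild type, and the 3' window 348 in TrspA37G and 852 in wild type. The later Sec codons of Sepp1 lie in the 3' window. Footprint density thus had a log2 ratio of -0.19 before the first UGA and was 2.45-fold lower (2.38 to 2.52) after it. Its readthrough ratio was 0.228 in TrspA37G and 0.489 in wild type, 2.14-fold lower (2.03 to 2.26). In Selt the 5' window was higher, with 76.4 RPFKM in TrspA37G and 48.3 in wild type, 1.58-fold higher (1.18 to 2.13). Its 3' window held 13.7 RPFKM in TrspA37G and 21.9 in wild type, 1.60-fold lower (1.27 to 2.03). The sides thus differed in opposite directions, which left its total close to even and its readthrough ratio at 0.179 in TrspA37G and 0.455 in wild type, 2.54-fold lower (1.73 to 3.72), from 142 footprints on the 5' side in TrspA37G and 72 in wild type.

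In Gpx1, Sephs2 and Sepx1 footprints were lower on both sides of the UGA. In Gpx1 the 5' window was at 304 RPFKM in TrspA37G and 2316 in wild type, 7.62-fold lower (6.94 to 8.37). Its 3' window was at 110.0 in TrspA37G and 1105 in wild type, 10.04-fold lower (9.43 to 10.7). The readthrough ratio of Gpx1 was therefore 0.362 in TrspA37G and 0.477 in wild type, 1.32-fold lower (1.18 to 1.47), below the 1.5-fold needed. In Sephs2 the 5' window held 144 RPFKM in TrspA37G and 332 in wild type, 2.31-fold lower, and the 3' window 90.1 in TrspA37G and 214 in wild type, 2.38-fold lower, with readthrough ratios of 0.627 in TrspA37G and 0.646 in wild type and a log2 ratio of -0.04 (-0.23 to 0.15). In Sepx1 the 5' window held 105 RPFKM in TrspA37G and 572 in wild type, 5.46-fold lower, and the 3' window 45.2 in TrspA37G and 215 in wild type, 4.77-fold lower, with a log2 readthrough ratio of 0.20 (-0.27 to 0.66). Gpx4 had readthrough ratios of 0.15 in TrspA37G and 0.152 in wild type, a log2 ratio of -0.02 (-0.21 to 0.17). The intervals of Gpx4 and Sephs2 lie inside 1.5-fold, while those of Gpx3, Selh, Selm and Seli, from 4 to 36 footprints in a 3' window, include 0 and reach past 1.5-fold.

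The 5' window of Sep15 held 118 RPFKM in TrspA37G and 182 in wild type, 1.55-fold lower (1.38 to 1.73). The 3' window of Gpx3 held 0.707 RPFKM in TrspA37G and 2.90 in wild type, and that of Selh 1.22 in TrspA37G and 5.07 in wild type. In readthrough Sep15 was on the other side of 0, with a ratio of 1.65 in TrspA37G and 1.41 in wild type, a log2 ratio of 0.23 (0.02 to 0.44), and Dio1 below it at -0.51 (-0.88 to -0.13). Divided by the 3' to 5' ratio of mRNA reads in the same windows, the readthrough ratio was lower in 3 of 9 genes (33.3%) and higher in 0 (0%). Sepp1 was then 2.23-fold lower (2.05 to 2.42), Selt 3.77-fold lower (1.94 to 7.32) and Gpx1 1.60-fold lower (1.39 to 1.83). Gpx1 passed 1.5-fold because its mRNA reads leaned further to the 3' side in TrspA37G, with a 3' to 5' ratio of 1.90 there and 1.57 in wild type. Sep15 was then at log2 -0.13, on the opposite side of 0, with an interval that included 0.

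**Figure D3:**
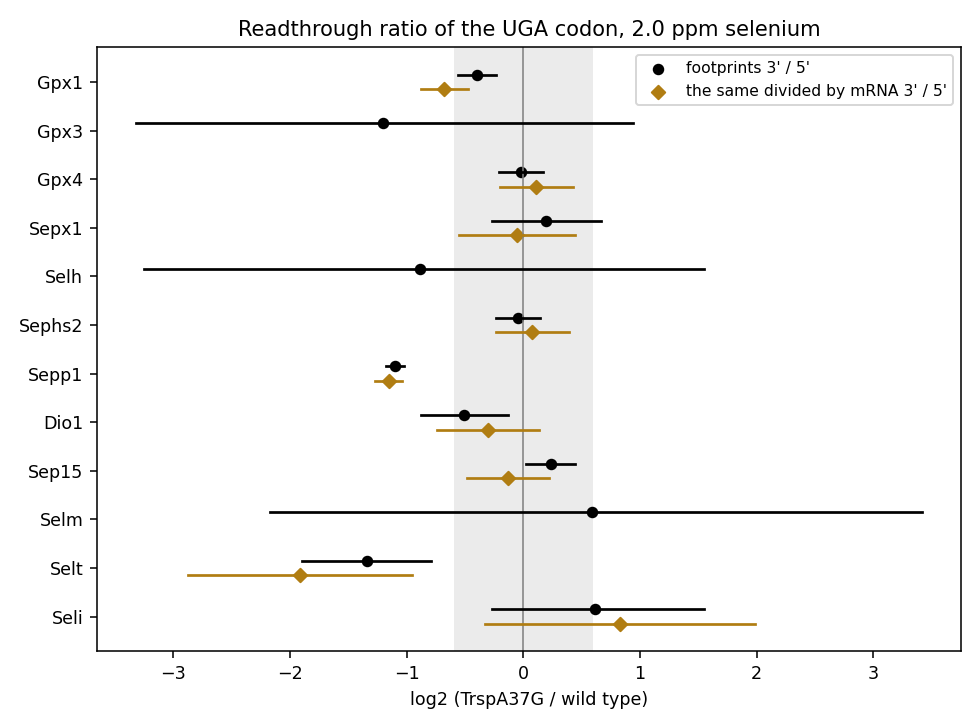
log2 ratio of TrspA37G to wild type for the readthrough ratio (circles, 12 genes) and for the same after division by the mRNA 3' to 5' ratio (diamonds, 9 genes). Bars are 95% intervals for counting error and the grey band is 1.5-fold. Sepp1 and Selt lie left of the band with both, Gpx4 and Sephs2 inside it.

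Between the windows lie 18 nt, taken here to be the 6 codons that end with the UGA, a placement inferred from lengths alone. The lengths would also allow a placement a codon further 3', which would take in the codon after the UGA. In Gpx1 these nt, 3.30% of the window, held 4497 of 6118 footprints in TrspA37G (73.5%, 72.4 to 74.6) and 31618 of 43659 in wild type (72.4%, 72.0 to 72.8). The genotypes were nearly alike in this share although the number of footprints differed several-fold. Of Gpx1 mRNA reads, 26.8% in TrspA37G and 22.6% in wild type fell in the same 18 nt, so mRNA reads were dense there too, and the part of this in the footprint share was not tested. Density in these nt was 11285 RPFKM in TrspA37G and 98886 in wild type, 8.76-fold lower (8.49 to 9.04), close to the fold over the whole coding sequence. Without them, Gpx1 footprints were 9.26-fold lower (8.79 to 9.76).

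Sepx1 had 41.1% of its footprints there in TrspA37G and 37.8% in wild type, beside 29.2% of its mRNA reads in TrspA37G and 25.3% in wild type. Selh had 22 of 33 footprints in TrspA37G and 42 of 71 in wild type. In Sepp1 the density in these nt was 364 RPFKM in TrspA37G and 1179 in wild type, 3.24-fold lower (2.67 to 3.95), so its density was lower already between the windows. Sephs2 was 3.17-fold lower (2.31 to 4.42) there and Sep15 2.64-fold lower (1.74 to 4.06). Dio1, within the rule over its coding sequence, was 2.16-fold lower (1.5 to 3.14) in these nt, from 49 footprints in TrspA37G and 85 in wild type. Gpx4 went the other way, with 99 of 3130 footprints in TrspA37G and 32 of 2012 in wild type, 2.48-fold higher (1.65 to 3.82) in density, while its 5' and 3' windows had log2 ratios of 0.30 and 0.28.

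**Figure D4:**
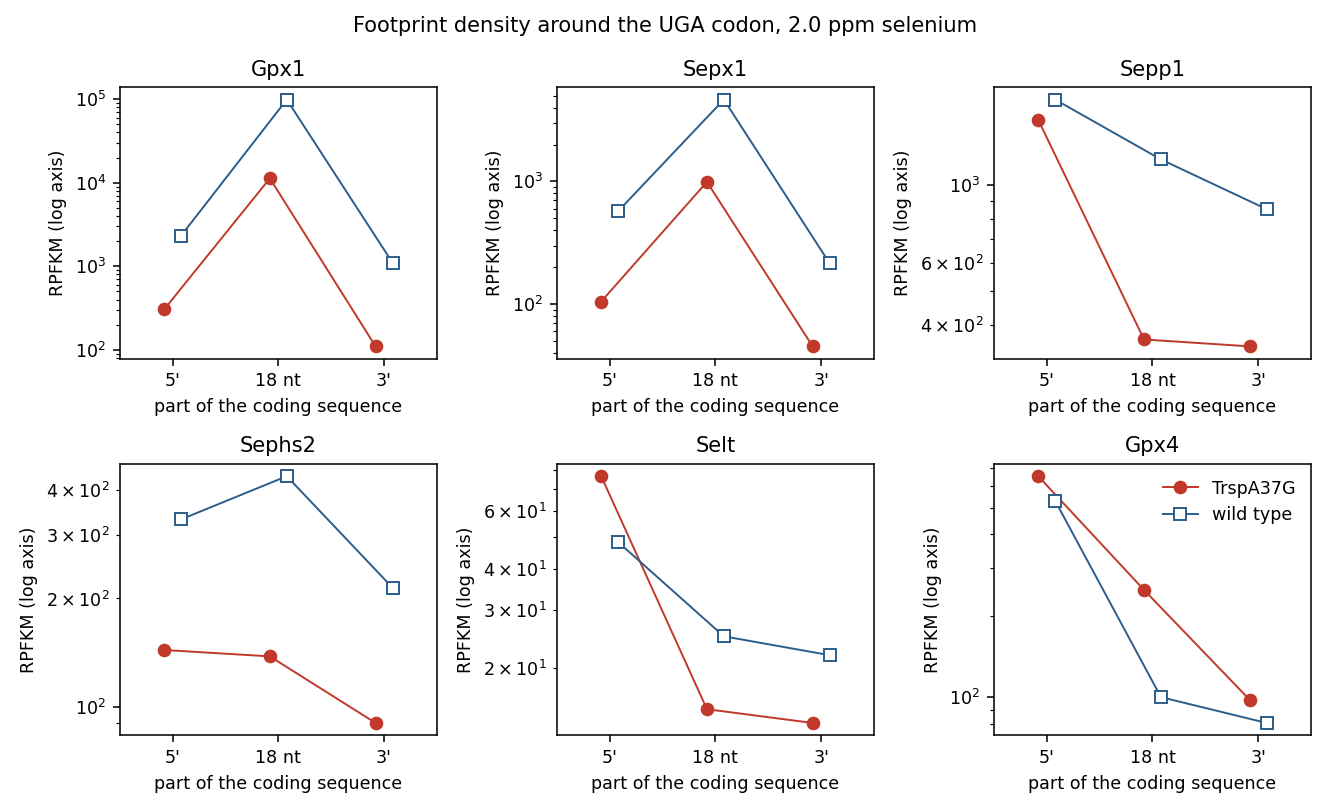
Footprint density (RPFKM, log axis, a scale of its own for each gene) in the 5' window, the 18 nt between and the 3' window for 6 genes, TrspA37G as filled circles and wild type as open squares, 1 library a point. In Gpx1 and Sepx1 the lines run apart at all 3 places, in Sepp1 they part after the 5' window, in Selt they cross, and in Gpx4 TrspA37G lies above.

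The genotype difference at 2.0 ppm was set against that at 0.1 and 0 ppm, from other libraries, by the difference of the log2 ratios. Against 0.1 ppm it differed by at least 1.5-fold, with an interval that excluded 0, in 2 of 20 genes for mRNA (10%), 1 of 20 for footprints (5%), 0 of 20 for efficiency (0%) and 3 of 11 for readthrough (27.3%). Against 0 ppm it did so in 5 of 20 for mRNA (25%), 11 of 20 for footprints (55%), 5 of 20 for efficiency (25%) and 3 of 9 for readthrough (33.3%). For footprints 5' of the UGA the counts were 3 of 19 (15.8%) against 0.1 ppm and 9 of 16 (56.2%) against 0 ppm, and for those 3' of it 0 of 12 (0%) and 6 of 11 (54.5%). Scaling of libraries bears on the mRNA, footprint and efficiency differences and not on readthrough.

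Txnrd2 and Gpx3 mRNA had log2 ratios of -1.03 and -0.99 at 2.0 ppm, against -0.03 and 0.09 at 0.1 ppm. The interval of the difference ran from -1.43 to -0.57 for Txnrd2 and from -1.89 to -0.27 for Gpx3. Footprints of Txnrd2 had -2.04 at 2.0 ppm, against -0.45 at 0 ppm, a difference of -1.58 (-1.96 to -1.21). Gpx1 footprints differed from those at 0 ppm by -1.40 (-1.46 to -1.33), Sepx1 by -1.48 (-1.61 to -1.36) and Txnrd1 by -1.10 (-1.25 to -0.94), each lower relative to wild type at 2.0 ppm than at 0 ppm. Sepp1 footprints differed the same way by -0.64 (-0.70 to -0.58). Gpx4, Seli, Selo, Selt, Dio1 and Gpx3 (3 footprints in TrspA37G at 0 ppm) differed the opposite way, with differences of 0.84 (0.72 to 0.96) for Gpx4 and 0.95 (0.77 to 1.13) for Seli. Sephs2 had a footprint ratio within 1.5-fold of itself on each diet, at log2 -1.34, -1.10 and -1.25 at 0, 0.1 and 2.0 ppm.

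For readthrough, Sepp1 had log2 ratios of 0.49, -0.47 and -1.10 at 0, 0.1 and 2.0 ppm, so that TrspA37G stood above wild type without added selenium and below it at the other diets. Selt had -1.23, -0.26 and -1.34, of which the value at 2.0 ppm differed from that at 0.1 ppm by -1.08 (-1.79 to -0.37) and from that at 0 ppm by -0.12 (-1.01 to 0.77). Gpx1 had -0.26, -1.29 and -0.40, and its ratio at 2.0 ppm was nearer to 0 than at 0.1 ppm by 0.89 (0.66 to 1.12). In Sepx1 the log2 ratio was 0.20 at 2.0 ppm against 1.60 at 0 ppm, a difference of -1.40 (-2.17 to -0.64). In Seli it was 0.62 against 2.55, a difference of -1.93 (-3.02 to -0.85). Each of these ratios lay above 0, but at 2.0 ppm the intervals of both genes included 0. A difference in readthrough from wild type was thus not detectable in them at 2.0 ppm. At 0.1 ppm the log2 ratio was -0.02 in Sepx1 and 1.09 in Seli. The 3' windows are short, 51 nt in Sepx1 and 18 nt in Seli.

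**Figure D5:**
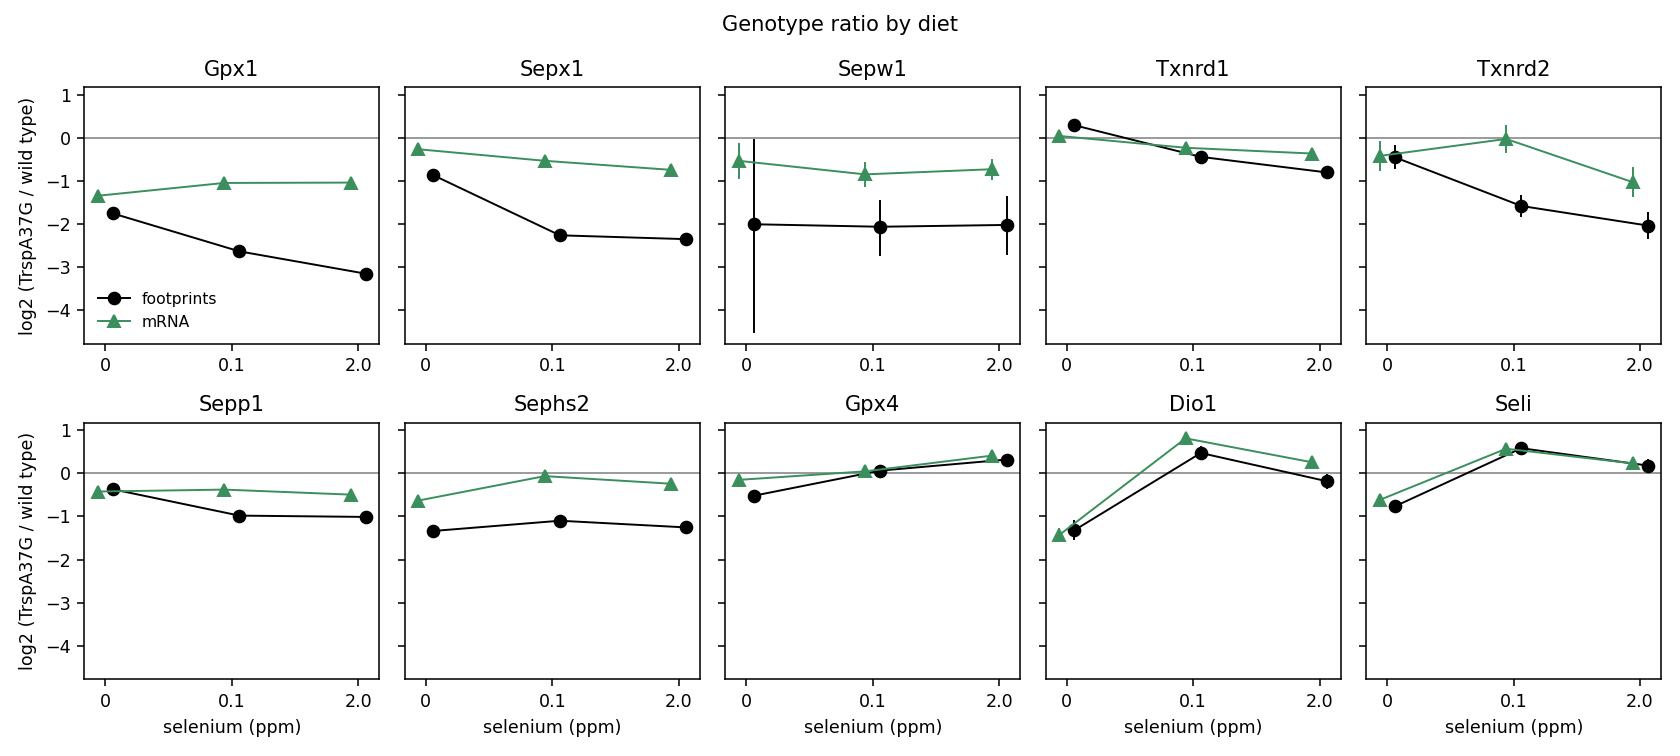
log2 ratio of TrspA37G to wild type for footprints (circles) and mRNA (triangles) at 0, 0.1 and 2.0 ppm selenium in 10 genes, with 95% intervals for counting error and 1 library of each kind per genotype and diet. Footprints of Gpx1, Sepx1, Txnrd1 and Txnrd2 lie lower at 2.0 ppm than at 0 ppm, those of Gpx4, Dio1 and Seli higher, and those of Sephs2 nearly level.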

How the data were processed

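Ribosome footprints and total mRNA of mouse liver were sequenced by the authors. Reads were mapped with Bowtie to build mm9, per the submitters' processing notes. Versions, read filters and the treatment of multiply matching reads were not given in the sources used here. Per the file headers, the authors deposited RPKM (mRNA) and RPFKM (footprints, the same unit) in 4 tables of 23 genes. One table covers whole mRNAs. The others cover the coding sequence without its first 15 and last 3 codons, and its parts 5' and 3' of the UGA. The mRNA columns of these 3 deposited tables were entered under another unit for lack of unique names, and are RPKM per the file headers.

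Whole reads were recovered from all 795 values above 0 (within 0.001 of a whole number), given 1 total of mapped reads per library. Each total was itself inferred, as one that made the most coding-window values whole at the annotated length. Each window length was fitted as the shortest at which its values were whole, so this recovery follows from the fit and is no check. A window with no value above 0 took its annotated length. The fitted lengths were then set against GENCODE M21 coding sequences. The coding window was 57 nt shorter than 3 nt for each codon, a length at which 95.3% of values were whole, against 13.2% at the best other. Of 62 windows, 60 matched annotated codons, and both windows that did not are those of Txnrd3. Annotated coding lengths had gone into the totals, so among the matches only the fitted 5' and 3' windows are a check. Whole-mRNA lengths were the shortest that gave whole reads, so those reads are the fewest possible.

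Ratios are of the deposited values, TrspA37G over wild type, with no pseudocount. Intervals (95%) are exact conditional (Clopper-Pearson) for ratios, exact conditional odds ratios up to 2000 reads and log-normal above that for ratios of ratios, and log-normal between diets. Those of the readthrough ratio over the mRNA ratio are log-normal at any number of reads. All intervals cover counting error only, since each group is 1 library, and they take each read as an independent count. Reads carry no molecular identifiers, so copies of a molecule cannot be told apart and the intervals may be too narrow. The intervals were tested on simulated data, except those between diets and those of the readthrough ratio over the mRNA ratio. Calculations used Python 3.11.15, SciPy 1.17.1 and NumPy 2.4.6. All 23 genes are accounted for, with both values for those counted in mRNA, footprints over the coding sequence, efficiency or readthrough and for the glutathione peroxidases and housekeeping genes. The members and lists were chosen with earlier results of these data known. Alternatives were other scalings, read floors, folds, regions and divisors.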

Additional observations from a re-analysis of the deposited data

Results flagged for a closer look

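15 results stood on opposite sides of 0 in TrspA37G against wild type at 2.0 ppm and at another diet, with both counting intervals off 0 and the difference past 1.5-fold. The comparisons with each diet covered 20 genes in mRNA, in footprints and in efficiency. They covered 9 to 11 genes in readthrough, 16 to 19 in footprints 5' of the UGA and 11 to 12 in those 3' of it. Measures of the same gene share reads, so the 15 are not independent. Txnrd1 footprints over the coding sequence and 5' of its UGA were the same 1170 reads in TrspA37G at 2.0 ppm. With 1 library a group, a difference between diets beyond counting error was not tested. For mRNA, Dio1 had a log2 ratio of 0.26 at 2.0 ppm against -1.43 at 0 ppm, Seli 0.23 against -0.62, Selt 0.17 against -0.74 and Sep15 0.18 against -0.56. From mRNA over the coding window alone, the 2.0 ppm ratio was -0.13 (-0.32 to 0.06) in Seli and 0.11 (-0.13 to 0.35) in Selt. Both of these intervals included 0. Those of Dio1, at 0.19 (0.09 to 0.30), and Sep15, at 0.25 (0.13 to 0.36), stayed above 0. For footprints, Gpx4 had 0.32 at 2.0 ppm against -0.52 at 0 ppm, Seli 0.18 against -0.77 and Txnrd1 -0.81 against 0.29. Dio1 footprints were at -0.18 at 2.0 ppm against 0.47 at 0.1 ppm. Without the nt between the windows, the Dio1 ratio at 2.0 ppm was -0.09 (-0.25 to 0.06), an interval that included 0. In its 5' window alone it was 0.03 (-0.15 to 0.21). 5' of the UGA, footprints of Gpx4 had 0.30 at 2.0 ppm against -0.44 at 0 ppm, Seli 0.15 against -0.92, Selt 0.66 against -0.54 and Txnrd1 -0.80 against 0.29. 3' of the UGA, Gpx4 had 0.28 at 2.0 ppm against -0.94 at 0 ppm. The efficiency of Txnrd1 was at -0.44 at 2.0 ppm against 0.25 at 0 ppm. The readthrough ratio of Sepp1, which no scaling of libraries moves, was at -1.10 at 2.0 ppm against 0.49 at 0 ppm.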

How the results depend on the processing

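No paired analysis was possible because each group is 1 library. A pseudocount was not tried because reads were recovered. Scaled to the median, 3 mRNAs were lower and 6 higher, 3 genes were higher in footprints, 3 lower and 1 higher in efficiency, 4 higher 5' of the UGA, and 3 lower and 4 higher 3' of it. That scaling shifts mRNA log2 ratios by 0.43 and footprints by 0.67, toward higher in TrspA37G. A 2-fold rule left 3 mRNAs lower and 0 genes higher 5' of the UGA. The interval alone gave 11 mRNAs lower and 6 higher, 2 genes higher in footprints, 12 lower in efficiency, 4 lower and 1 higher in readthrough, 3 higher 5' of the UGA and 1 higher 3' of it. Footprints 5' of the UGA, used in place of the coding sequence, gave 1 gene higher. The other 53 of 72 counts under alternatives stayed within 1.5 times. Alternatives for the 5' and 3' windows were chosen after seeing the data. Of 181 values of single genes under alternatives, 154 kept their sign and 66 moved by more than their interval; 0 that had been counted as lower or higher reversed. Depth limits Gpx3, Selh, Selm, Sepn1 and Sepw1, with 11 to 88 footprints in a library.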

Other observations

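The make-up of the selenoprotein footprints differed between the genotypes. Of the footprints over the coding sequences of the 23 genes, Gpx1 held 19.3% in TrspA37G and 53.6% in wild type, while Sepp1 held 35.7% in TrspA37G and 22.5% in wild type. These shares depend on their sum, which was 3.20-fold lower (3.16 to 3.24) in TrspA37G, while per mapped read Gpx4 was 1.25-fold higher (1.18 to 1.32) and Sepp1 2.02-fold lower (1.97 to 2.06). In wild type 31618 of the 43659 Gpx1 footprints lay in the 18 nt at its UGA, against 377 of 18300 for Sepp1. Of the mRNA reads over the same windows, Gpx1 held 24.7% in TrspA37G and 33.3% in wild type, and Sepp1 41.0% in TrspA37G and 40.2% in wild type. Gpx4 held 9.86% of the footprints in TrspA37G and 2.47% in wild type.

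Across the 20 genes, which are not independent replicates, the log2 genotype ratios of mRNA and footprints had a Pearson r of 0.77 and a Spearman rho of 0.78. The 2 ratios come from separate libraries of the same groups, and each is scaled by its library's mapped reads.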
